A study of Mus musculus with 10 samples.

Results

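The baseline transcriptome of plasma cells was read from the 5 arrays of untreated mice, out of 10 arrays in the series. Each array held RNA of bone marrow plasma cells, sorted as negative for the B cell surface marker B220 and positive for Blimp1, the plasma cell factor encoded by Prdm1. The untreated mice and the rapamycin-treated mice, 5 in each group, were of the strain B6.BLIMP1 +/GFP, so that all mice of both groups carried a GFP allele of Blimp1, the reporter used for sorting. Rapamycin inhibits the kinase mTOR. The sources used here give no dose or duration for it, and no age or sex of the mice. Every probe set with exactly 1 gene symbol was taken, each gene was represented by its brightest probe set over the 5 untreated arrays, and 22180 genes were ranked by mean signal and by the standard deviation (SD) between mice. All values below are log2 signals, in which 1 unit is a 2-fold difference, and mice 1 to 5 are untreated replicates 1 to 5. No treatment contrast was made.

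Plasma cells are the antibody-secreting end stage of the B cell lineage. They give up most of the B cell program under Blimp1 and Irf4, expand the endoplasmic reticulum (ER) under Xbp1, and feed large amounts of immunoglobulin through folding, quality control and Golgi transport. Long-lived plasma cells stay in the marrow with the help of adhesion molecules, the chemokine receptor Cxcr4 and survival signals such as those received through BCMA, the product of Tnfrsf17.

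The mean signal of a gene had a median of 5.19 over the 22180 genes, with quartiles of 4.09 and 6.74 and a highest value of 14.01. A mean of 10 or more was reached by 399 genes, which is 1.8% of all genes. The SD over the 5 mice had a median of 0.14 and was 0.5 or more for 85 genes, 0.383% of all genes. The medians of the 5 arrays lay between 4.93 and 4.98, a closeness that the authors' normalization sets. The root mean square deviation of an array from the gene means was 0.146 to 0.167, highest in mouse 1. Each gene was read by its own probes, whose brightness per molecule differs, so a rank is a rank of array signal and not of transcript amount. The 59 measured genes for cytosolic ribosomal proteins, which are subunits of 1 particle, ranged from 3.56 for Rps15 to 13.02 for Rplp1. Vmn1r233, a pheromone receptor of the nose, had a signal of 12.93 and the sperm tail gene Odf1 12.01, so that a bright probe set alone is no sign of a cell's program.

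The 6 plasma cell markers were all bright. Jchain, the chain that joins IgM and IgA into polymers, had 13.45, 13.43, 13.36, 13.37 and 13.40 in mice 1 to 5 and ranked 7 among all genes. Xbp1, the transcription factor of the secretory program, had 12.24, 12.26, 12.26, 12.22 and 12.28 and ranked 45. The mice did not differ in either gene by more than 0.1. Irf4, the factor that drives and maintains plasma cells, had 10.96, 10.95, 10.98, 11.09 and 11.17. Tnfrsf17 had 10.61, 10.32, 10.29, 10.22 and 10.001, highest in mouse 1 and lowest in mouse 5. The proteoglycan Sdc1, known as the plasma cell surface marker CD138, had 9.96, 9.98, 9.95, 9.97 and 10.20, with mouse 5 above the other 4. Prdm1 itself had 9.95, 9.81, 9.86, 9.43 and 9.52, at rank 506, and mice 4 and 5 lay below mice 1 to 3.

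Of a wider list of 34 measured plasma cell identity genes, 18 had a mean of 10 or more, against 1.8% of all genes, and the median member stood at percentile 98.4 of all genes. Beside the markers, the brightest were Txndc5, an ER thioredoxin-type oxidoreductase, at 12.03 ± 0.14 (SD, n = 5), Mzb1, an ER chaperone of IgM assembly, at 11.93 ± 0.04, and Slamf7, a surface receptor of plasma cells, at 11.85 ± 0.07. Ell2, the elongation factor that favours the secreted form of heavy chain mRNA, was at 11.81 ± 0.15. At the other end were Cd27, a receptor of memory B cells and plasma cells in humans, at 4.27 ± 0.11, and Cav1, a caveola coat protein, at 4.01 ± 0.14. Both lay below the median gene.

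**Figure D1:**
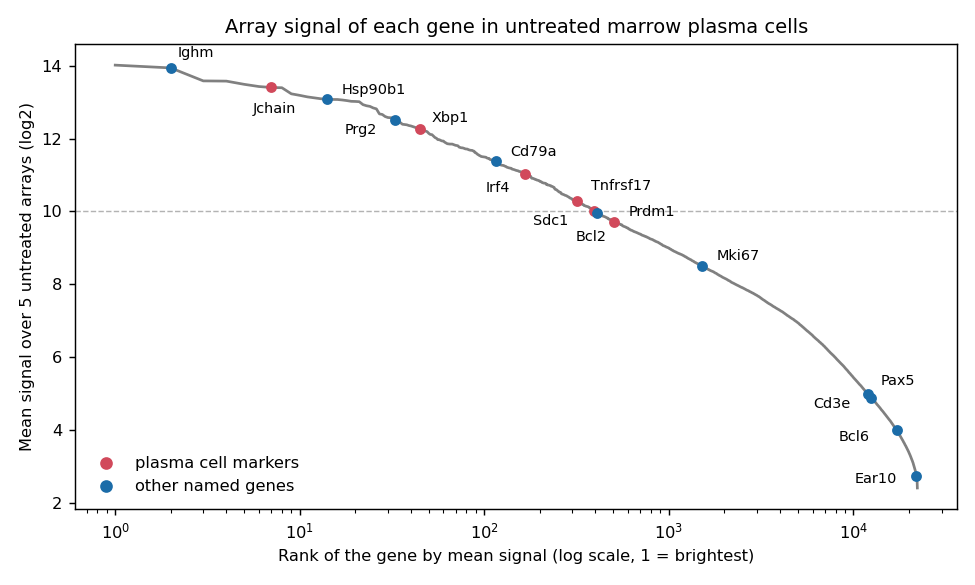
Mean signal over the 5 untreated arrays (log2) of all 22180 genes against their rank (log scale), with the 6 plasma cell markers in red and other genes of the text in blue; the dashed line marks a signal of 10. The markers lie between ranks 7 and 506, whereas Pax5, Cd3e, Bcl6 and Ear10 lie in the dim part of the curve.

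Antibody genes held the top of the ranking. The brightest gene of all was Igkv5-43, a kappa light chain variable segment, with 14.01, 14.07, 14.02, 13.98 and 14.00 in mice 1 to 5. It was followed by Ighm, the IgM heavy chain constant region, with 13.96, 14.03, 13.96, 13.87 and 13.87. Ighg3, the constant region of IgG3, had 13.15, 13.19, 12.77, 12.81 and 13.19, lower in mice 3 and 4 than in the others. Of 12 constant region genes listed, the other 10, among them Igha, Ighg1, Ighg2b, Ighg2c and Igkc, had no probe set that met the selection, so that the antibody classes cannot be ranked. The probe sets of a gene did not read alike here, since the 7 probe sets of Ighm spanned 10.64 to 13.94. Those with means of 12.05 and 10.64 had SDs of 0.65 and 0.61 between mice, against 0.07 for the brightest, and the second probe set of Ighg3 had a mean of 6.81. Of the 3 probe sets of Igkv5-43 the dimmest had a mean of 10.96. Iglv1, a lambda light chain segment, was at 13.07 ± 0.25 and Igkj1, a kappa joining segment, at 13.07 ± 0.12. Of 17 measured antibody variable segments 15 had a mean of 10 or more. Variable segments resemble each other in sequence, so a probe set may read several segments at once.

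Outside the antibody genes, the highest signals belonged to a mixed set that held Jchain and the ER chaperone Hsp90b1 beside noncoding, housekeeping and surface genes. Rn7sk, the noncoding RNA that restrains transcription elongation factor P-TEFb, was at 13.58 ± 0.01 and had the smallest spread of all 22180 genes. B2m, the light chain of MHC class I, was at 13.23 ± 0.05, and Eef1a1, which brings aminoacyl-tRNA to the ribosome, at 13.14 ± 0.09. The mitochondrial gene COX1, a cytochrome c oxidase subunit, was at 13.09 ± 0.03. Serinc3, a membrane protein of the serine incorporator family, was at 13.04 ± 0.03, and Ly6e, a lipid-anchored surface antigen, at 12.90 ± 0.03. Of the 399 genes at 10 or more, 64 belonged to the ER and Golgi lists and 26 encoded cytosolic ribosomal proteins. Another 21 were respiratory chain genes of the nucleus or mitochondrion, and 17 were on the lists of antibody constant regions and variable segments. Those lists leave out Igkj1 and also Igh-VS107, an antibody heavy chain gene by its symbol, which was at 13.58 ± 0.09 and ranked 3.

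The folding machinery of the ER was bright as a group. Of 21 measured ER chaperones and cofactors 11 had a mean of 10 or more, against 1.8% of all genes, and the median member was at percentile 99.1. Hsp90b1, the ER form of HSP90, had 13.06, 13.17, 13.04, 13.07 and 13.07 in mice 1 to 5 and ranked 14. Creld2, an ER protein induced by ER stress, was at 12.35 ± 0.10, Dnajb9, an ER J-protein, at 11.97 ± 0.13, and Hspa5, the chaperone BiP that holds unassembled heavy chains, at 11.49 ± 0.12. The dimmest members were Fkbp7, an ER prolyl isomerase, at 5.73 ± 0.07 and Clgn, a calnexin relative of the testis, at 4.70 ± 0.15. Of 19 disulfide isomerases and oxidases 6 reached 10, among them Pdia3 at 10.77 ± 0.15 and P4hb at 10.60 ± 0.06, which form and rearrange disulfide bonds. Pdia5 was at 5.14 ± 0.38 and Erp27, an ER protein without isomerase activity, at 4.87 ± 0.08.

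Entry into the ER and N-glycosylation were represented by 36 measured genes, of which 18 reached 10. Ssr2, a subunit of the translocon-associated complex, was at 12.60 ± 0.10, and the oligosaccharyltransferase subunits Ost4 and Ddost were at 12.36 ± 0.04 and 12.19 ± 0.06. Tram1, which helps chains into the membrane channel, was at 11.95 ± 0.05. Dad1, another subunit of the transferase, had 11.71, 11.71, 11.73, 11.68 and 11.70 in mice 1 to 5, a range of less than 0.1. Of the catalytic subunit Stt3b, by contrast, the signal was 9.65, 9.85, 10.11, 10.18 and 10.27, lowest in mouse 1. Tusc3, an alternative oxidoreductase subunit, was at 5.87 ± 0.14, and Sec61a2, the second gene for the channel's alpha subunit, at 6.18 ± 0.05.

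Removal of misfolded chains was covered by 26 measured genes of ER-associated degradation, of which 14 reached 10. Herpud1, a scaffold of the ubiquitin ligase complex, was at 12.58 ± 0.07, and the mannose-trimming factors Edem1 and Edem2 were at 12.31 ± 0.04 and 11.37 ± 0.04. Ube2j1, an ER-bound ubiquitin conjugating enzyme, was at 11.50 ± 0.08. Of 22 regulators of the unfolded protein response 4 reached 10 (18.2%, against 1.8% of all genes), which were Xbp1, Atf6 at 11.39 ± 0.10, Atf4 at 11.09 ± 0.07 and Creb3l2 at 11.02 ± 0.10, all of them transcription factors. The sensor kinase Ern1, which splices Xbp1 mRNA, was at 9.75 ± 0.15, and Ddit3, the stress factor CHOP, at 9.71 ± 0.25. Creb3l3, a liver factor of the same family as Creb3l2, was at 4.60 ± 0.14. Of 43 genes of transport between ER and Golgi 12 reached 10. They included Tmed10, a p24 cargo receptor, at 11.81 ± 0.05, and the coat GTPase Arf1 at 11.69 ± 0.18. Mia2, an ER export factor of the liver, was the dimmest at 3.21 ± 0.08.

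The promoters of these ER genes are known for the ER stress response element, to which ATF6 binds together with NF-Y. The element was searched as CCAAT, then any 9 bases, then CCACG, on both strands, in RefSeq promoter windows (GRCm38.p6) of 250 bases before to 50 bases after the gene start. Of all 32851 promoter windows 39 held it (0.119%), and of the 16918 measured genes with a window 29 held it (0.171%). Among the 400 brightest genes, 279 had a window and 9 held the element (3.23%). All 9 were ER genes of the lists used here. Genes ranked 401 to 2000 held it in 2 of 1300 cases those ranked 2001 to 10000 in 3 of 6344, and those ranked 10001 and beyond in 15 of 8995 (0.167%). Of the 29 measured genes with the element, 15 were therefore dim ones. Of the ER chaperones with a window, 6 of 16 held it, of the ER-associated degradation genes 3 of 24, of the disulfide isomerases and oxidases 2 of 17, and of the translocon and glycosylation genes 0 of 27. A match is a match of letters in this window and was not tested for binding.

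The whole window is shown for Hsp90b1, Creld2 and Hspa5, the 3 brightest genes that held the element, with the letters of the element in capitals. An element on the opposite strand reads CGTGG, then 9 bases, then ATTGG. The Hsp90b1 window is chr10:86705395-86705694 (minus strand) and holds the element on each strand, that of Creld2 is chr15:88819396-88819695 (plus strand) and that of Hspa5 is chr2:34771840-34772139 (plus strand).
Hsp90b1: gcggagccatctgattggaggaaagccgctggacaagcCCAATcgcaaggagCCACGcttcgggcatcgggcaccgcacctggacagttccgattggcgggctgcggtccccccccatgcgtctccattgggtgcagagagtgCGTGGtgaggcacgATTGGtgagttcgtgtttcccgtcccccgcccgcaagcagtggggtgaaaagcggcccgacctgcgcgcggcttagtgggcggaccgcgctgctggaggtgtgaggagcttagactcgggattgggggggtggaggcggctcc
Creld2: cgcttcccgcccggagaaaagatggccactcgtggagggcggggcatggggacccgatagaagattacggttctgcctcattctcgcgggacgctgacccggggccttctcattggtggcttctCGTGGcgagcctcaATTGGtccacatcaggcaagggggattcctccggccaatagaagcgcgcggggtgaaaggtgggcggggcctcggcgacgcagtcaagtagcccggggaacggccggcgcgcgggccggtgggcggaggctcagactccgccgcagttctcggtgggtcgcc
Hspa5: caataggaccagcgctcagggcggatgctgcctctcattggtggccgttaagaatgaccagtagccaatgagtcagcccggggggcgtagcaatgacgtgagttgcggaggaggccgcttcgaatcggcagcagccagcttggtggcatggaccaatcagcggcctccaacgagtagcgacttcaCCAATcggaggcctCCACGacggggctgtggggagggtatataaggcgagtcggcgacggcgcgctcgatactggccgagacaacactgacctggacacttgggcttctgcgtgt

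The element itself is shown for the other 6 bright genes, in the direction CCAAT to CCACG, to show that the 9 bases between its ends are not shared. Calr and Canx encode the lectin chaperones calreticulin and calnexin, with signals of 11.08 ± 0.06 and 10.86 ± 0.19. Dnajc3, a J-protein cofactor of Hspa5, was at 11.03 ± 0.05, and the disulfide isomerase Pdia6 at 10.40 ± 0.08. Derl3, a derlin of the degradation channel, was at 10.57 ± 0.05, and Syvn1, the ubiquitin ligase HRD1, at 10.32 ± 0.15. The 10 elements of the 9 genes began 44 to 212 bases before the gene start, counted at their leftmost base in the gene's direction, and 6 of them ran in the direction of the gene.
Calr: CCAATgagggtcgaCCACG
Dnajc3: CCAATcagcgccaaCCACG
Canx: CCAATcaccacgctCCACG
Derl3: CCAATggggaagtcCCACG
Pdia6: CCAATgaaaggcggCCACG
Syvn1: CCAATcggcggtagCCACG

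**Figure D2:**
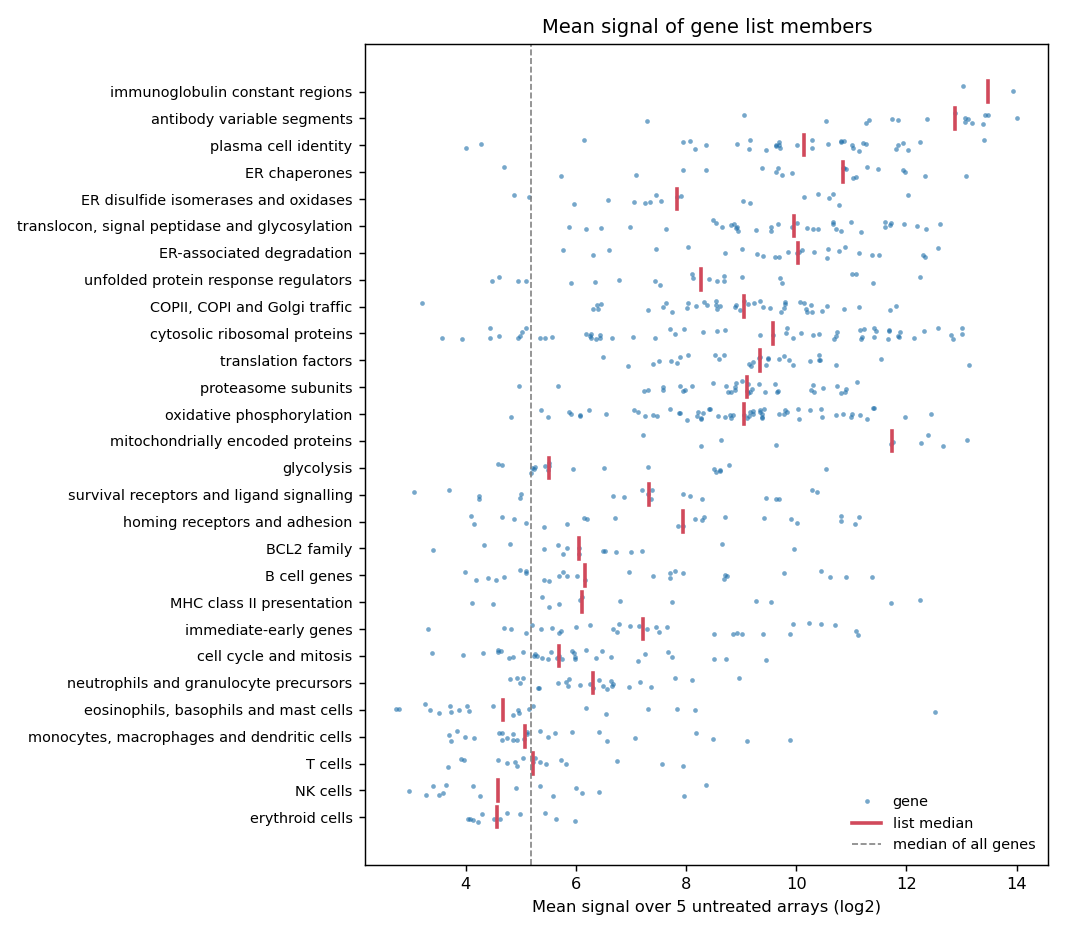
Mean signal over the 5 untreated arrays (log2) of each member of 28 gene lists, a dot per gene, with the list median as a red bar and the median of all genes (5.19) as a dashed line. Antibody, plasma cell, ER and mitochondrially encoded genes lie far to the right, and the medians of the erythroid and NK cell lists lie left of the dashed line.

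Protein synthesis and turnover genes were bright in part. Of 59 cytosolic ribosomal protein genes 26 reached 10, with Rplp1 at 13.02 ± 0.06 and Rps6 at 13.01 ± 0.03, and the median member was at percentile 97.4. Of 30 translation factors 7 reached 10, led by Eef1a1 and by Eef2, the translocation factor, at 11.53 ± 0.13. Of 37 proteasome subunits 9 reached 10. The constitutive catalytic subunits Psmb5 and Psmb6 were at 10.89 ± 0.09 and 9.10 ± 0.12, and the immunoproteasome subunits that replace catalytic subunits after interferon, Psmb10, Psmb9 and Psmb8, were at 10.90 ± 0.09, 10.82 ± 0.23 and 9.02 ± 0.13. Psmb9 had 10.64, 10.60, 10.84, 10.82 and 11.19 in mice 1 to 5, highest in mouse 5. Of 19 aminoacyl-tRNA synthetase genes 1 reached 10 (5.26%, against 1.8% of all genes), a count that tells little in a list of this size. This member was the asparagine enzyme Nars at 11.10 ± 0.13, and the median member was at percentile 94.5.

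Of 61 nuclear genes of oxidative phosphorylation 15 reached 10, with a median at percentile 95.7. The brightest was Ndufa1, a complex I subunit, at 12.44 ± 0.13, and Atp5b, the catalytic subunit of ATP synthase, was at 11.42 ± 0.09. Of 19 glycolysis genes 1 reached 10 (5.26%, against 1.8% of all genes), Gapdh at 10.54 ± 0.06, and the median was at percentile 56.2. The glycolysis genes Gpi1, Aldoa and Eno1 had no probe set that met the selection and were not analysed here. The glucose transporter gene Slc2a1 was at 8.79 ± 0.21, and the hexokinase gene Hk2 and the lactate dehydrogenase gene Ldha were at 5.44 ± 0.07 and 5.19 ± 0.11.

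Among 23 measured homing and adhesion genes 5 reached 10. Cxcr4, the receptor for the marrow chemokine Cxcl12, was at 10.81 ± 0.28, with its lowest signal of 10.42 in mouse 1 and its highest of 11.13 in mouse 5. The tetraspanin Cd81 was at 11.14 ± 0.19, the selectin ligand Selplg at 11.06 ± 0.12 and Itga4, the alpha chain of the integrin VLA-4, at 10.82 ± 0.20. S1pr1, the receptor that draws lymphocytes into the blood, had 6.41, 5.95, 5.65, 5.40 and 5.75, and the chemokine receptor genes Ccr6 and Ccr2 were at 4.09 ± 0.10 and 4.14 ± 0.13. Of 20 survival receptors and their signalling partners 2 reached 10. They were Tnfrsf17 and Cd47, the do-not-eat-me signal, at 10.38 ± 0.08. Tnfrsf13b, the receptor TACI, was at 9.44 ± 0.11, the inhibitory Fc receptor Fcgr2b at 9.68 ± 0.08 and Il6st, the shared chain of IL-6 receptors, at 9.64 ± 0.28.

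The 16 BCL2 family genes had their median at percentile 65.1. None reached 10, which tells little in a list of this size when 1.8% of all genes did. Bcl2, an inhibitor of cell death, came nearest with 9.64, 9.69, 10.17, 10.19 and 10.15 in mice 1 to 5, lower in mice 1 and 2 than in the other 3. Mcl1, the member on which plasma cell survival is known to depend in mice, had 8.47, 8.47, 8.77, 8.86 and 8.66, and the same 2 mice were lowest. The pro-death genes Hrk and Bbc3 were at 3.41 ± 0.12 and 4.80 ± 0.30.

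The list of B cell genes, not all of them known to be silenced in plasma cells, was mixed. Of 29 measured members 4 reached 10 and 8 lay below the median gene. Bright were Cd79a at 11.37 ± 0.12 and Cd79b at 10.90 ± 0.09, the signalling chains of the B cell receptor, Blnk, its adaptor, at 10.60 ± 0.09, and Fcrla, an intracellular Fc receptor-like protein, at 10.45 ± 0.17. Dim were the B cell identity factor Pax5, with 5.07, 4.94, 4.95, 5.02 and 4.90 in mice 1 to 5, the germinal centre factor Bcl6 at 3.99 ± 0.11 and the IgE receptor gene Fcer2a at 4.19 ± 0.19. Cd22, an inhibitory B cell receptor, had 5.36, 5.48, 5.64, 6.08 and 6.30, the widest spread of the list, and mice 4 and 5 lay above the other 3.

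Of 13 genes of MHC class II presentation 2 reached 10, Ctss, the protease that trims the invariant chain, at 12.25 ± 0.14 and H2-Ab1, a class II beta chain, at 11.71 ± 0.16. H2-Aa, the matching alpha chain, was at 9.54 ± 0.23, whereas Ciita, the class II transactivator that Blimp1 is known to repress, was at 5.50 ± 0.08. H2-DMb2, a chain of the peptide loader, had 5.23, 5.90, 5.95, 6.40 and 6.89, an SD of 0.62, lowest in mouse 1 and highest in mouse 5.

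Of 32 immediate-early genes 5 reached 10. Fosb had 11.43, 10.71, 10.98, 11.28 and 11.22 in mice 1 to 5, Fos had 10.49, 10.08, 9.97, 10.40 and 10.22, and the mRNA decay factor Zfp36 had 11.21, 10.89, 11.10, 11.07 and 11.13. Mouse 1 was highest in all 3 genes, and mouse 2 lowest in Fosb and Zfp36. Of the 32 members 12 had their lowest signal in mouse 2, and the share of all genes lowest in mouse 2 was not computed. No member of the lists of 33 cell cycle genes and of 27 interferon-stimulated genes reached 10, which tells little in lists of this size when 1.8% of all genes did, and both had their median at percentile 59.3. Pcna, the replication clamp, was at 9.46 ± 0.09 and Mki67, a proliferation marker, at 8.51 ± 0.21. The mitotic genes Bub1 and Birc5 were at 3.39 ± 0.13 and 3.95 ± 0.18. The interferon-stimulated genes Ifi27 and Mx1 were at 9.97 ± 0.19 and 3.48 ± 0.19.

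Markers of other marrow cells reached 10 about as seldom as genes in general. Over the lists of other lineages 2 of 175 measured genes reached 10, a share of 1.14% against 1.8% of all genes. They were Prg2, the major basic protein of eosinophil granules, and Cd24a, a surface protein of B cell precursors and many other cells, at 10.15 ± 0.10. Prg2 had 12.20, 12.42, 12.56, 12.72 and 12.66 in mice 1 to 5 and ranked 33. The other eosinophil genes did not share this level. Of the 22 measured genes of the eosinophil, basophil and mast cell list, 6 had a mean of 6 or more and 15 lay below the median gene. The ribonuclease Rnase2a was at 7.84 ± 0.44, and the receptor gene Il5ra, also on the survival receptor list, at 7.31 ± 0.28. The eosinophil peroxidase Epx was at 4.49 ± 0.29, the ribonuclease Ear10 at 2.74 ± 0.07, the eotaxin receptor Ccr3 at 3.34 ± 0.10 and Siglecf at 5.23 ± 0.18. The part of other cells in the Prg2 signal was not tested.

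T cell, NK cell, erythroid and stromal markers had their list medians at percentiles 50.8, 36.5, 36.4 and 38.5. The brightest members of these lists were at 7.94, 8.36, 5.98 and 8.10, in the same order. The T cell value of 7.94 was that of Cd28, a gene also on the plasma cell identity and survival receptor lists. The list of monocytes, macrophages and dendritic cells had its median at percentile 48.0. Of its 26 members 7 had a mean of 6 or more, and the highest was at 9.88. The T cell receptor chains Cd3e and Cd3d were at 4.89 ± 0.15 and 4.74 ± 0.19, the erythroid factor Klf1 at 4.63 ± 0.21 and the recombinase gene Rag2 of B cell precursors at 3.57 ± 0.05. Ebf1, a B lineage factor, was at 7.79 ± 0.25. The neutrophil list had its median at percentile 68.9, with none of 25 members at 10, 15 at 6 or more, 4 below the median gene, and the granule protein Ngp highest at 8.97 ± 0.45. In bulk RNA, fewer cells of a type and less RNA per cell cannot be told apart.

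The spread between mice was small for most genes, and its median was lower at the bright end. With 1 array per mouse, a difference between mice cannot be told apart from one between arrays. The median SD was 0.15 for genes with a mean from 4 to 6, 0.16 from 6 to 8, 0.11 from 10 to 12 and 0.09 at 12 or above. The share of genes with an SD of 0.5 or more did not follow the median. It was 0.383% from 4 to 6, 0.513% from 6 to 8, 0.423% from 8 to 10 and 0.872% from 10 to 12, where it rested on 3 of 344 genes, and none of the 55 genes at 12 or above was among them. After Rn7sk, the least variable of the 399 bright genes were Dad1, Xbp1 and Serinc3, with SDs of 0.02, 0.02 and 0.03, followed by Ly6e and Sod1, the cytosolic superoxide dismutase at 12.68. At the SD threshold itself lay Bod1 with 0.501 and Zfp975 with 0.501 inside and Gm11517 with 0.499 outside. At the signal threshold, Sqstm1 with 10.001 lay just inside and Ddx17 with 9.995 just outside.

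**Figure D3:**
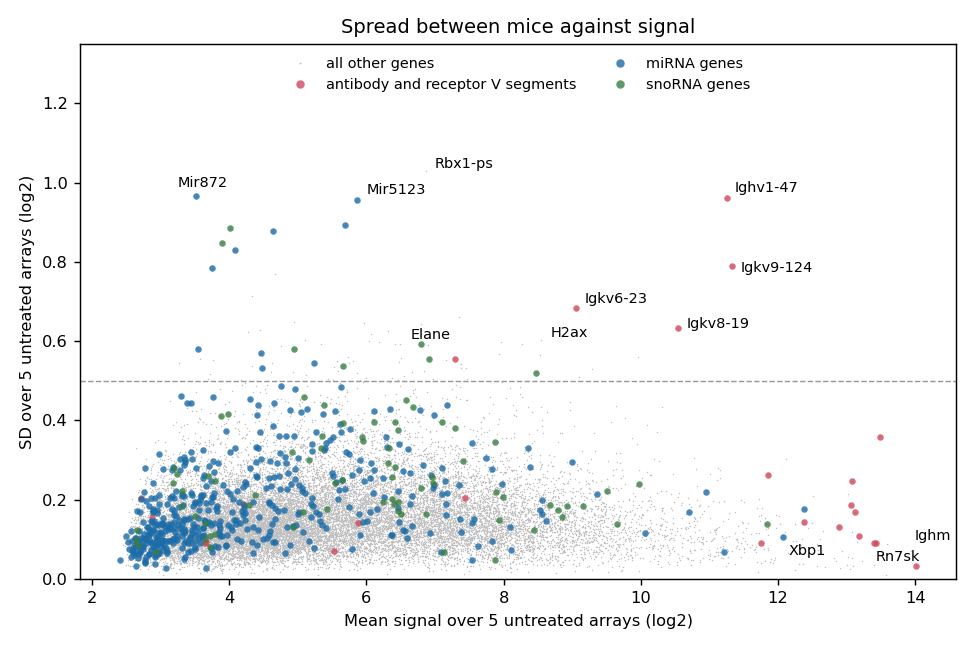
SD over the 5 untreated arrays (log2) of each gene against its mean signal (log2), with V segments in red, miRNA genes in blue and snoRNA genes in green; the dashed line marks an SD of 0.5. Among bright genes the points above the line are V segments, and among dim genes many are miRNA and snoRNA genes.

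Variable segments were the bright genes with the largest spread over the 5 arrays. Ighv1-47, a heavy chain segment, had 10.62, 10.53, 10.73, 11.62 and 12.80 in mice 1 to 5, so that mouse 5 lay over 2 log2 units above mice 1 to 3. Igkv9-124, a kappa segment, had 11.96, 12.17, 10.50, 10.51 and 11.47, and mice 3 and 4 were low. Igkv8-19, also kappa, had 10.19, 11.66, 10.28, 10.17 and 10.38, high in mouse 2 alone. These 3 genes were the only genes with a mean of 10 or more and an SD of 0.5 or more. Igkv6-23 had 9.50, 9.89, 9.11, 8.22 and 8.54, and Ighv1-54 had 6.75, 7.62, 6.65, 7.92 and 7.49. Igkv9-124, Igkv8-19 and Igkv6-23 were thus all highest in mouse 2, Ighv1-47 in mouse 5 and Ighv1-54 in mouse 4. Of 25 V segments by the RefSeq gene type, which include those of T cell receptors, 5 had an SD of 0.5 or more (20%), against 0.290% of protein-coding genes.

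Small noncoding RNA genes were the other class with large spread, mostly at low signal. An SD of 0.5 or more was found for 10 of 478 miRNA genes (2.09%) and for 7 of 80 snoRNA genes (8.75%). Mir5123 had 4.69, 6.82, 5.32, 5.64 and 6.88 in mice 1 to 5, high in mice 2 and 5. Mir3097 had 5.98, 4.59, 4.91, 6.62 and 6.34, low in mice 2 and 3. Mir20a, of the miR-17 to miR-92 cluster known from B cell development, had 3.41, 5.67, 4.14, 4.93 and 5.06, lowest in mouse 1. Mir872 stood out in mouse 4, with 5.20 there and 3.07, 3.42, 3.03 and 2.85 in mice 1, 2, 3 and 5, and Snord82, a guide for RNA methylation, in mouse 1, with 5.59 there and 3.48, 3.71, 3.59 and 3.68 in mice 2 to 5. The pseudogene Rbx1-ps had the largest SD of all genes, 1.03, with 8.43, 6.51, 6.18, 7.33 and 5.88.

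The mature miRNAs of the 3 genes named first are shown with the seed, bases 2 to 8, in capitals to identify the products of genes with a large SD. The sources used here do not give whether these probe sets read the mature miRNA or its hairpin. The sequences are RefSeq sequences with positions on GRCm38.p6. miR-5123 lies at chr4:40850057-40850080 on the minus strand, miR-3097-5p at chr5:35021050-35021072 and miR-3097-3p at chr5:35021094-35021115 on the plus strand, and miR-20a-5p and miR-20a-3p at chr14:115044183-115044205 and chr14:115044219-115044240 on the plus strand. The 5 seeds differ from each other.
miR-5123: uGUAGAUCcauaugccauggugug
miR-3097-5p: cACAGGUGggaagugugugucca
miR-3097-3p: cUCAGACCuuucuaccugucag
miR-20a-5p: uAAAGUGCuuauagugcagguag
miR-20a-3p: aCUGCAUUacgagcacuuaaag

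Protein-coding genes with large spread were rarer, 55 of 18964. Laptm4b, a lysosomal membrane protein, had 6.39, 7.74, 7.08, 8.12 and 7.43 in mice 1 to 5. H2ax, the histone variant phosphorylated at DNA breaks, had 9.01, 9.16, 7.75, 8.10 and 8.71, low in mice 3 and 4. Klrb1, a C-type lectin receptor, had 7.38, 7.08, 7.30, 6.14 and 6.07, and the cytokine gene Il18 had 6.55, 6.80, 6.56, 5.23 and 6.46. Klrb1 was low in mice 4 and 5 and Il18 in mouse 4 alone.

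**Figure D4:**
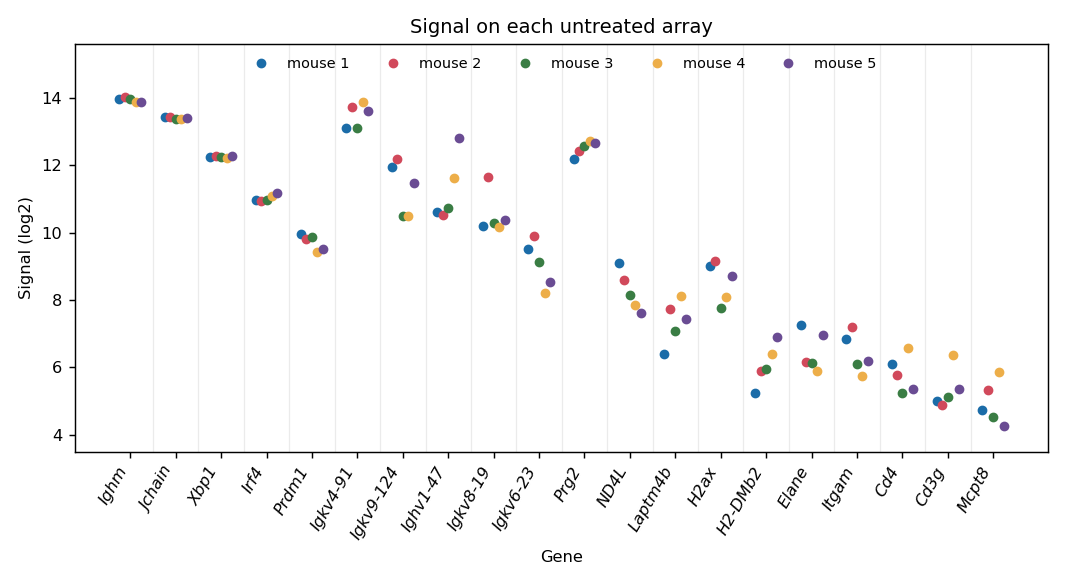
Signal (log2) of 20 genes on each untreated array, a colour per mouse. The brightest probe set of Ighm and those of Jchain and Xbp1 hardly differ between mice, Ighv1-47 reaches 12.80 in mouse 5 against 10.53 in mouse 2, and Cd4, Cd3g and Mcpt8 are highest in mouse 4.

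Genes of other marrow cells made up part of the spread. Of the 175 measured genes on the lists of other lineages 7 had an SD of 0.5 or more (4%), against 0.383% of all genes and 0 of 165 on the ER and Golgi lists. The list mean of 25 neutrophil genes was 6.52, 6.32, 5.97, 6.38 and 6.41 in mice 1 to 5. Of the 25 genes 16 had their lowest signal in mouse 3, and the share of all genes lowest in mouse 3 was not computed. Camp, a granule peptide, had 7.34, 7.38, 6.26, 7.73 and 7.11, Elane, neutrophil elastase, had 7.26, 6.17, 6.13, 5.90 and 6.96, and the integrin gene Itgam had 6.84, 7.19, 6.11, 5.73 and 6.18. Elane and Itgam were thus lowest in mouse 4 and Camp in mouse 3. Cd4 had 6.09, 5.79, 5.24, 6.58 and 5.36 and Cd3g had 5.00, 4.89, 5.12, 6.36 and 5.35, both highest in mouse 4, whereas Cd3e in mouse 4 was 4.87 and Cd3d 4.48, the lowest of the 5 for Cd3d. The basophil protease Mcpt8 had 4.73, 5.32, 4.52, 5.87 and 4.27, also highest in mouse 4.

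Mouse 1 stood at an end of the range in several gene groups. All 10 measured mitochondrially encoded protein genes had their highest signal there, and the list mean was 11.09 in mouse 1, against 10.87, 10.72, 10.60 and 10.55 in mice 2 to 5. ND4L, a complex I subunit, had 9.10, 8.60, 8.16, 7.86 and 7.62, and ND2, another, had 10.29, 9.86, 9.52, 9.26 and 9.27. The nuclear oxidative phosphorylation genes did not show this order, with list means of 8.78, 8.82, 8.80, 8.77 and 8.83. Of 26 heat shock and cytosolic chaperone genes 19 had their lowest signal in mouse 1, and the list mean there was 7.58, against 7.76, 7.77, 7.76 and 7.84 in mice 2 to 5. Hspa8, the constitutive HSP70, had 10.37, 10.69, 10.55, 10.61 and 10.77, and Hsph1, an HSP70 partner, had 8.12, 9.17, 8.43, 8.96 and 8.50. Of 43 ER to Golgi transport genes 21 were lowest in mouse 1, and 13 of 26 genes of ER-associated degradation. Their list means differed between mice by less than 0.2. Mouse 1 also had the highest root mean square deviation from the gene means, 0.167. How many of all genes had their highest or lowest signal in mouse 1 was not computed. No label gives RNA quality, array batch or scan date, so these could not be set beside the values.

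**Figure D5:**
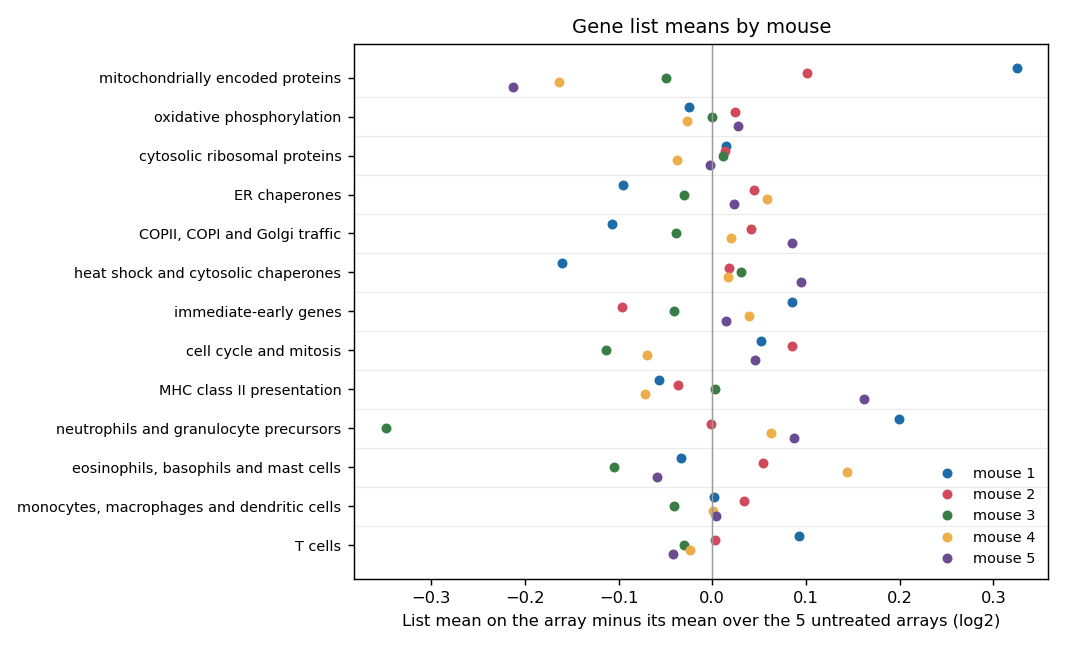
Mean of each gene list on an untreated array minus its mean over the 5 untreated arrays (log2), a colour per mouse. Mouse 1 lies highest for mitochondrially encoded genes and lowest for heat shock genes, and mouse 3 lies lowest for the neutrophil list.

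The rapamycin arrays gave a second set of 5 mice in which the same spread could be measured. Of the 200 genes with the largest SD in untreated mice, 42 were among the 200 with the largest SD in rapamycin-treated mice, 21% of each list, while 200 genes are 0.902% of all genes. Across genes the SDs of the groups had a Spearman rho of 0.26, over 22180 genes that share probes and platform and are not independent replicates. Of the 85 genes with an SD of 0.5 or more in untreated mice, 19 passed 0.5 in rapamycin-treated mice too, where 74 of all 22180 genes did. The median SD of the 85 genes, which were chosen for their spread in untreated mice, was 0.35 in rapamycin-treated mice, against 0.14 for all genes there. Among those shared by both lists of 200, Mir5123 had an SD of 0.96 in untreated and 1.00 in rapamycin-treated mice, Rbx1-ps 1.03 and 0.73, and Ighv1-54 0.56 and 0.91. Ighv1-47 had 0.96 and 0.43, and the granule gene Camp 0.55 and 0.47. Other genes did not keep their spread. Itgam had an SD of 0.59 in untreated and 0.09 in rapamycin-treated mice, Il18 0.62 and 0.12, H2ax 0.60 and 0.17, and Mir872 0.97 and 0.30.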

How the data were processed

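RNA of sorted marrow plasma cells was labelled with biotin and hybridised to Affymetrix arrays, 1 array per mouse, per the labels' protocols and the design text. The values deposited by the authors are log2 signals, and the submitters' processing notes name RMA. RMA corrects background, sets the arrays to a common distribution and summarises probes, so a shift of all transcripts is not seen. The deposited table has 41345 rows. By the platform annotation 23521 rows carry 1 gene symbol, 1820 carry more than 1 and 16004 are unnamed here. Of 22180 genes, 1082 had several probe sets and the brightest over the untreated arrays was used. Gene type and chromosome came from RefSeq (GRCm38.p6), matched for 21994 genes. A second deposited table holds 12280 rows with the same values (tolerance 1e-06), by a filter not given in the sources used here, and served as an alternative.

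Means and SDs over the 5 untreated arrays were computed with Python 3.11.15, pandas 2.3.3 and numpy 2.4.6, and figures were drawn with matplotlib 3.10.9. Signal levels of the groups were not compared and no p-value was computed. SDs within each group were set side by side, and single values were screened by Dixon's ratio with a critical value of 0.71. The precision of an SD is limited by the 5 arrays behind it. Groups were taken from the sample titles. The computation of means and SDs was tested on simulated data, and the counts and the choice of probe set were not. Genes were named by rule, as the 6 markers, the 25 highest means, the 25 largest SDs, the 10 smallest SDs at a mean of 10 or more, per list up to 5 highest, 2 lowest and 3 most variable members, and members whose low signal bears on a cell type. The last were Pax5, Ciita, Cd3d, Cd3e, Klf1, Epx, Ccr3 and Siglecf, picked by judgement after their values were seen. Genes beside the thresholds, the promoter element genes, Ell2, Odf1, Psmb6, Psmb8, Hk2 and Ldha were named outside the rule after their values were seen. Rnase2a and Il5ra were also added after their values were seen. Members, lists and thresholds were chosen with earlier results of these data known. The antibody variable segments were taken by symbol, and the mitochondrially encoded genes by chromosome and gene type. Alternatives were the median with a scaled median absolute deviation, the mean of all probe sets, the filtered table, protein-coding genes, arrays centred on their medians, other thresholds and leaving out each mouse. Protein sequences were not analysed here.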

Additional observations from a re-analysis of the deposited data

Results flagged for a closer look

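In 12 of 193 genes and list means examined, the value of a single mouse stood apart from the other 4 by Dixon's ratio, the gap to the nearest value over the whole range. Chance flags about 1 in 20 such groups where the genes were not picked by their spread, a share near the one found. Some of the genes examined were named for a large or small SD in the same arrays, so that rate is only a rough guide. Mouse 1 stood apart in Dnajb9, lowest (0.914), and Snord82, highest (0.89). Mouse 2 was highest in Igkv8-19 (0.861), Edem2 (0.734), Hsp90b1 (0.723) and the hexokinase gene Hk2 (0.721). Mouse 3 was lowest in Clgn (0.8) and Rag2 (0.735). Mouse 4 was highest in Mir872 (0.759) and lowest in Il18 (0.779). Mouse 5 was highest in Sdc1 (0.867) and lowest in the pseudogene Gm11517 (0.724). The whole range was below 0.5 in Dnajb9, Edem2, Hsp90b1, Hk2, Clgn, Rag2 and Sdc1. It exceeded 1 in Igkv8-19, Snord82, Mir872, Il18 and Gm11517.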

How the results depend on the processing

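The count of genes with a mean of 10 or more was 399. It was 119 in the filtered table, which holds fewer genes, and 173 at a threshold of 11. The count of genes with an SD of 0.5 or more was 85, and became 138 with the median and scaled median absolute deviation, 55 among protein-coding genes, 40 among genes with a mean of at least 6 and 12 at a threshold of 0.75. The first of these changes had a cause that was not tested, and the others follow from fewer genes or a stricter threshold. Without 1 mouse at a time the counts ranged from 392 to 405 and from 89 to 116. Of the 100 genes with the largest SD, 24 were shared with the rapamycin arrays, against 42 of 200, and 37 to 41 of 200 without 1 untreated mouse. The median SD was 0.14 and lay between 0.11 and 0.18 under all alternatives run. Of 35 gene lists, 14 had a median at percentile 90 or above, and 12 to 14 under the alternatives run. Single list medians moved by more than their SD between mice in 25 of 34 lists with the filtered table, 22 of 33 with protein-coding genes and 17 of 35 with all probe sets averaged. The cytosolic ribosomal protein list moved most with the filtered table, to percentile 53.3 from 97.4. Of 158 named genes examined, 21 changed their mean by more than their SD when all probe sets were averaged. No paired analysis was possible because no result compares signal levels between the groups, although the labels give both groups the same replicate numbers.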
